A study of Mus musculus with 12 samples.

Results

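The comparison described here sets lungs of mice given rhPBEF without ventilation directly against lungs of mice ventilated without rhPBEF, with 3 arrays a group, so 6 of the 12 arrays of the series. The arrays were chosen by their titles alone. For the rhPBEF group, a dose of 20 µg of recombinant human PBEF per animal was instilled into the airway, in a water volume of 1.5 µl for each gram the animal weighed. The ventilated mice (labelled VALI) were on a ventilator for 4 hours with breaths of 30 ml per kg, which overstretch the lung. Of the other arrays, 3 came from mice given both treatments and 3 from control mice labelled as receiving phosphate-buffered saline. All mice were 8 to 12 weeks old. The labels give neither strain nor sex, nor how long after instillation the lungs were taken, nor whether ventilated animals also had liquid instilled. If ventilated animals had no liquid instilled, the rhPBEF protein cannot be told apart from the instilled liquid in this comparison. No group was ventilated with small breaths, so the large breath cannot be told apart from ventilation itself. The labels do not state that each array stands for its own animal, and the tests therefore rest on array-to-array spread, which may be technical.

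The mouse gene Nampt encodes PBEF, which inside the cell makes a precursor of NAD and outside it is known as an inflammatory signal. Inflammatory signals of this kind act largely through NF-kB, a family of transcription factors that switches on chemokines, which draw white blood cells into the airspaces, and then its own inhibitors. Overstretch of the lung is known for injuring epithelium and endothelium, for activating growth factor and immediate early genes, and for drawing in neutrophils. Both single treatments are models of acute lung injury, and the comparison asks in which genes they differ.

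The genes with the largest differences were chemokines, and the start regions of 4 of them that passed the test are shown because each holds a match to the NF-kB consensus. The sequences are from RefSeq (GRCm38.p6) and run from 250 bases before to 50 bases after the gene start, 5′ to 3′ on the gene's strand, with matches to the NF-kB consensus, searched on both strands, in capitals. They lie at chr5:90890995-90891294 for Cxcl1, chr5:90903649-90903948 for Cxcl2, chr5:90785851-90786150 for Cxcl3 and chr1:83116516-83116815 for Ccl20, all on the plus strand.
Cxcl1: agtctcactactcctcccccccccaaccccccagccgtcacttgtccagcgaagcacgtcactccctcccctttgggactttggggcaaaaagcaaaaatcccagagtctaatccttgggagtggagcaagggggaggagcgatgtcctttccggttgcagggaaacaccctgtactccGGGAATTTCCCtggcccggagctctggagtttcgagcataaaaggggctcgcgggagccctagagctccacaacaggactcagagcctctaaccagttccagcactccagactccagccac
Cxcl2: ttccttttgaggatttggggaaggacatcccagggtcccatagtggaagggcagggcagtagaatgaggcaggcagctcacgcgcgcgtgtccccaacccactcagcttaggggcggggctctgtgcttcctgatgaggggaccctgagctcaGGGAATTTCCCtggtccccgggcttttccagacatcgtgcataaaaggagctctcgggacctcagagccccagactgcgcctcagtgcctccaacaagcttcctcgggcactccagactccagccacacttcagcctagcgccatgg
Cxcl3: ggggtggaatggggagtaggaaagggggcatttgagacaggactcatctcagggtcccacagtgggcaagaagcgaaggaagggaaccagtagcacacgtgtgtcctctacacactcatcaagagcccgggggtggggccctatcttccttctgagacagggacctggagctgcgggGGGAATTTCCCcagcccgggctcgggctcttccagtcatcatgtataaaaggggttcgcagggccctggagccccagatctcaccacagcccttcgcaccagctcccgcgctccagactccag
Ccl20: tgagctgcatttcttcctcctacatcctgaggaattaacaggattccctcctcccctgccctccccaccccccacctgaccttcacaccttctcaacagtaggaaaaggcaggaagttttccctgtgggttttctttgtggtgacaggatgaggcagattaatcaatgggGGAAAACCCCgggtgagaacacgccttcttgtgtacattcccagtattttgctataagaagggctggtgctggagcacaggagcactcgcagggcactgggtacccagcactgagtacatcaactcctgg
Cxcl1, Cxcl2 and Cxcl3 held the same stretch of capitals, made of 2 overlapping matches, and Ccl20 held 1 match of other letters. Among genes tested that had such a window, 1689 of 14452 (11.7%) held a match. The share was 9 of 43 (20.9%) among genes higher in rhPBEF lungs, 3 of 28 (10.7%) among genes lower in rhPBEF lungs, 3 of 7 (42.9%) among neutrophil chemokines, and 3 of 15 (20%) among other chemokines, so most chemokines with a window held none. It was 8 of 18 (44.4%) among NF-kB pathway genes, 5 of 20 (25%) among heat shock genes and 8 of 27 (29.6%) among immediate early genes. The heat shock and immediate early lists had negative median differences, so such matches were not particular to genes higher in rhPBEF lungs. A match is a match of letters and no measure of binding.

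The deposited values are log2 expression levels without detection calls, so a low level cannot be told from background. Lung genes marked the tissue as labelled: Sftpc and Sftpb of alveolar type 2 cells, Scgb1a1 of club cells, Ager of type 1 cells and Cldn5 of endothelium lay between the 98.9th and 100th percentile of all genes. Arrays correlated with each other at 0.9914 to 0.9943 within rhPBEF lungs and at 0.9826 to 0.9928 within ventilated lungs. Ventilation replicate 2 stood apart, at 40.9 on the first principal component of the 6 arrays (43.7% of the variance) where the other 5 arrays lay between -22.7 and 8.83. Mean levels of 6 skeletal muscle markers were 6.36, 9.73 and 6.15 on the rhPBEF arrays and 6.30, 6.49 and 8.80 on the ventilation arrays, so 1 array in each group was high in muscle RNA. The count of genes past the test is given below with and without these arrays.

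Across 18193 genes, 89 differed between rhPBEF and ventilated lungs (0.489% of genes tested, limma adjusted p under 0.05). Of these, 56 were higher (0.308%) and 33 lower (0.181%) in rhPBEF lungs, and 36 of the higher but 6 of the lower genes differed at least 2-fold. The 3 values of one group did not overlap with those of the other in any of the 89 genes. Non-overlap in itself was common, holding for 825 genes higher (4.53%) and 2044 genes lower (11.2%) in rhPBEF lungs, and an unadjusted p under 0.05 was reached by 721 higher (3.96%) and 1571 lower (8.64%) genes. Counts in the gene lists below are to be read beside these shares, which were larger for lower genes. The median difference over all genes was -0.04 on the log2 scale, with 7049 genes (38.7%) above 0. Fitted on the 6 arrays alone, 32 genes passed, 28 higher and 4 lower, of which 30 were among the 89. The count fell to 40, 54 and 50 without rhPBEF replicates 1, 2 and 3, to 41 and 54 without ventilation replicates 1 and 2, and to 57 and 55 without control replicates 1 and 2, which enter only the estimate of spread. It was 153 without ventilation replicate 3, 169 without replicate 3 of the combined treatment, and 44 without both arrays high in muscle RNA. In all 12 fits that left out 1 array, 29 of the 89 genes passed, 21 higher and 8 lower, and a gene described below as passing in fewer of those 12 fits has its number given. Calls lost in the fit on the 6 arrays alone are given below only for some genes.

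**Figure D1:**
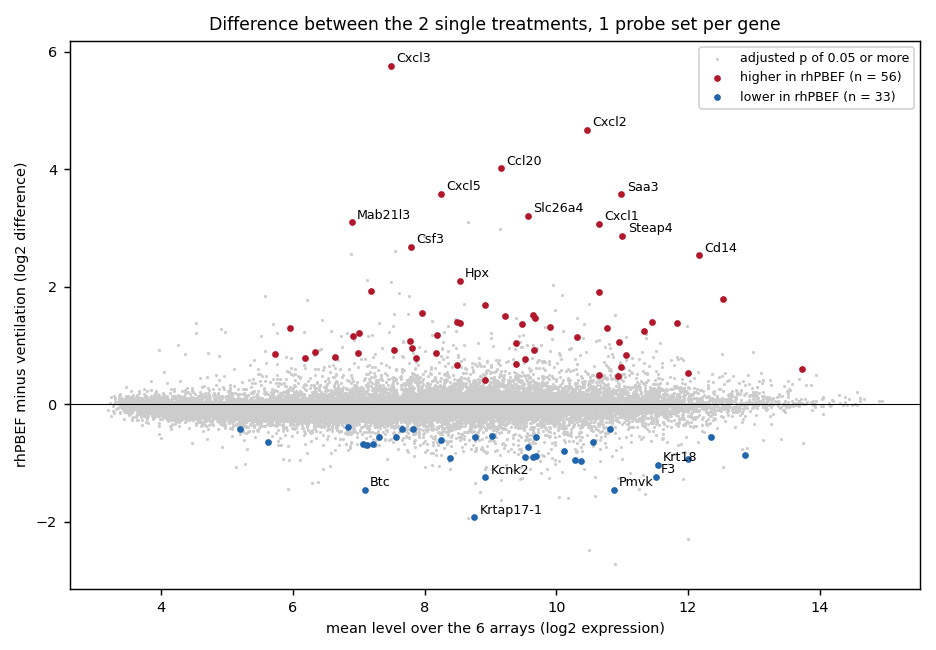
Each point is 1 of 18193 genes, with its mean log2 expression over the 3 rhPBEF and 3 ventilation arrays on the x axis and the log2 difference (rhPBEF minus ventilation) on the y axis. The 56 genes that were higher (red) reach a difference of 5.77, the 33 that were lower (blue) reach -1.92, and the grey points did not pass an adjusted p of 0.05.

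Among genes past the test, Cxcl3 and Cxcl2, chemokines that attract neutrophils, had the largest differences. Cxcl3 had log2 levels of 10.95, 10.16 and 10.02 in rhPBEF lungs, against 4.65, 5.30 and 3.88 in ventilated lungs. Every rhPBEF array lay far above every ventilation array. The difference was 5.77 ± 0.65 (SE, n = 3 each), or 54.4-fold (limma adjusted p = 0.00355). The ventilated values of Cxcl3 lay below 6.42, the 40th percentile of mean levels over probe sets. They cannot be told from background, so this fold is a size as measured. Cxcl2 had 12.82, 12.69 and 12.90 in rhPBEF lungs, against 8.06, 9.53 and 6.80 in ventilated lungs. The rhPBEF arrays were nearly alike while the ventilation arrays spread widely. That difference was 4.67 ± 0.51 (SE, n = 3 each), or 25.5-fold (limma adjusted p = 0.00337), and its adjusted p was 0.0562 in the fit on the 6 arrays alone. Cxcl1 had 12.01, 12.19 and 12.35 in rhPBEF lungs, against 9.07, 9.57 and 8.69 in ventilated lungs, an 8.41-fold difference (limma adjusted p = 0.000825). The other probe sets of Cxcl1 gave log2 differences of 1.04 and 3.78, so its size depends on the probe set. Cxcl5, made mainly by epithelium, had 10.01, 9.54 and 10.56 in rhPBEF lungs, against 7.08, 7.31 and 4.98 in ventilated lungs, which is 12-fold (limma adjusted p = 0.0282). It passed in 6 of 12 fits that left out 1 array, with an adjusted p of up to 0.12 (without rhPBEF replicate 3). Mean levels after both treatments and in control lungs were 10.19 and 3.60 for Cxcl3, 12.66 and 5.37 for Cxcl2, 12.25 and 7.92 for Cxcl1, and 10.35 and 5.06 for Cxcl5. As whole lung tissue was measured, more cells of a type and more RNA per cell cannot be told apart.

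Of 8 neutrophil chemokine and receptor genes tested, these 4 were higher, none was lower, and the list median was 1.82 against -0.04 over all genes. Leaving out both arrays high in muscle RNA, 3 were higher, and Cxcl5 had a limma adjusted p of 0.0524. The members that did not pass were Ppbp, Pf4 and Cxcl15 at 0.57, 0.26 and -0.05, and the receptor gene Cxcr2 at 0.07. Among markers of neutrophils themselves 1 gene was higher and none lower. Their mean level over 17 genes was 10.18, 9.94 and 9.88 on the rhPBEF arrays and 10.37, 10.27 and 8.82 on the ventilation arrays, and the groups overlapped. The median difference of these markers was 0.07 with all arrays and -0.33 without ventilation replicate 3, the array with the lowest level. S100a8, S100a9 and Mmp8, which neutrophils carry in abundance, had differences of 0.42, 0.50 and -0.36 (limma adjusted p = 0.757, 0.757 and 0.861). The 95% interval for S100a9 ran from -0.84 to 1.84, so differences of that size in either direction were not resolved. The 1 marker that passed was Lcn2, encoding the iron-chelator protein lipocalin 2, which epithelium also makes. It had 13.53, 13.51 and 13.25 in rhPBEF lungs, against 11.84, 11.29 and 11.79 in ventilated lungs, or 3.46-fold (limma adjusted p = 0.00394).

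Ccl20, which attracts dendritic cells and lymphocytes through Ccr6, was the largest difference among the other chemokines. Its levels were 10.71, 10.57 and 12.22 in rhPBEF lungs, against 7.28, 7.43 and 6.74 in ventilated lungs. The difference was 4.02 ± 0.38 (SE, n = 3 each), or 16.2-fold (limma adjusted p = 0.0012). Control lungs averaged 7.29, close to the ventilated lungs. Ccl20 alone of the 23 tested passed, while 12 were higher and none lower at an unadjusted p under 0.05, and the list median was 0.81. That median was 0.38 without rhPBEF replicate 2, 1.18 without rhPBEF replicate 3, and 0.58 without both arrays high in muscle RNA. Cxcl10, an interferon-inducible T cell chemokine, had 11.12, 11.63 and 9.15 in rhPBEF lungs, against 7.53, 8.26 and 7.15 in ventilated lungs (limma adjusted p = 0.13), and rhPBEF replicate 3 was the lowest of the rhPBEF arrays. Ccl3 and Ccl12, which attract monocytes, had differences of 2.87 and 2.12 (limma adjusted p = 0.075 and 0.165). Without replicate 3 of the combined treatment, which enters only the spread, Cxcl10, Ccl3 and Ccl12 passed (0.0285, 0.00843 and 0.0133).

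**Figure D2:**
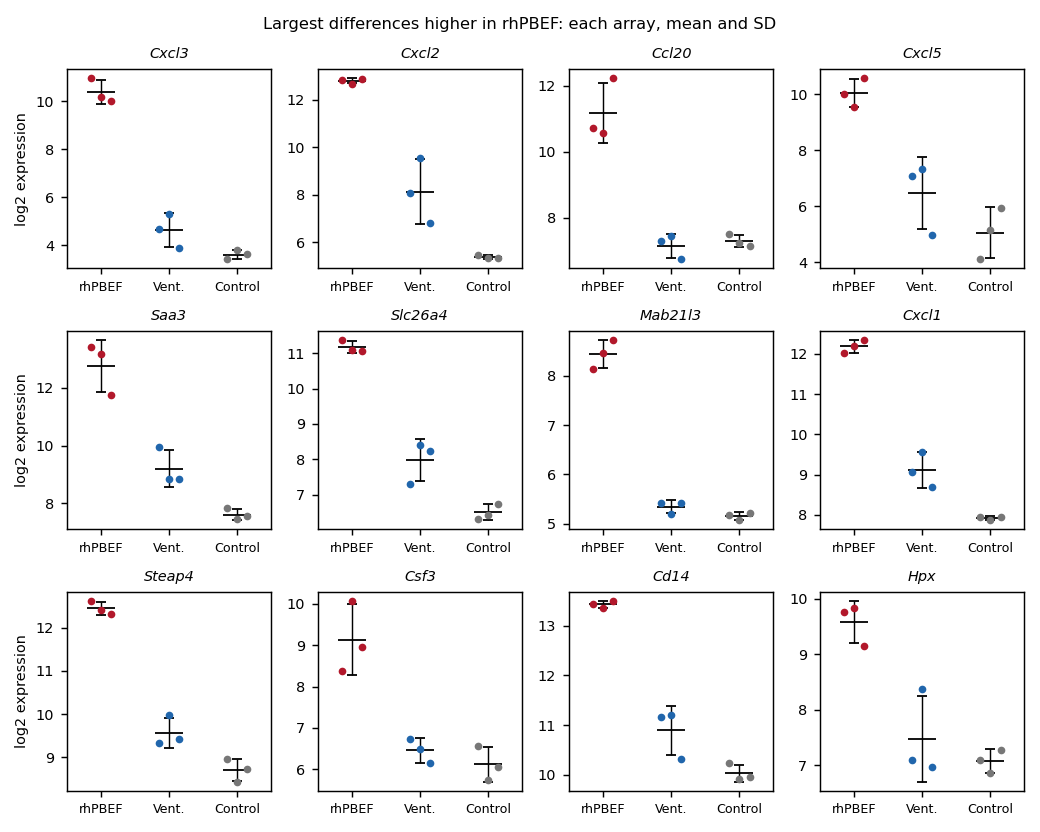
Each panel shows 1 of the 12 genes with the largest differences higher in rhPBEF lungs, with log2 expression on the y axis and 1 point per array for rhPBEF, ventilated and control lungs (bar and whiskers, mean and SD of 3 arrays). In all 12 panels the lowest rhPBEF point lies above the highest ventilation point.

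In the list of 22 inflammatory cytokine genes 2 passed. The granulocyte growth factor gene Csf3 had 8.38, 10.07 and 8.96 in rhPBEF lungs, against 6.73, 6.48 and 6.15 in ventilated lungs, 6.43-fold (limma adjusted p = 0.0395, passing in 3 of 12 fits that left out 1 array, up to 0.118). Tnf, encoding the early cytokine tumour necrosis factor, had 8.20, 7.91 and 7.86 in rhPBEF lungs, against 7.05, 7.12 and 7.06 in ventilated lungs, 1.89-fold (limma adjusted p = 0.0222, passing in 7 of 12 fits, up to 0.105). Both were higher with no overlap. Il34, a ligand of the macrophage growth factor receptor and not in that list, was 1.93-fold higher (limma adjusted p = 0.0126, 9 of 12 fits, up to 0.0627). Csf2, the granulocyte and macrophage growth factor gene, had 10.98, 9.67 and 9.97 in rhPBEF lungs, against 7.21, 7.25 and 6.84 in ventilated lungs. Its groups lay far apart, yet it did not pass (limma adjusted p = 0.0615), while the 6 arrays alone gave 0.0287 and the fit without replicate 3 of the combined treatment 0.00158. Il1a had a difference of 1.54 (limma adjusted p = 0.0511) and Csf1 1.01 (0.334). Il6 and Il1b, classic cytokines of lung injury, overlapped between the groups. Il6 had 8.89, 10.45 and 8.61 in rhPBEF lungs, against 7.65, 10.30 and 7.78 in ventilated lungs, and its 95% interval ran from -0.72 to 2.20. Il1b had 11.93, 11.21 and 10.67 in rhPBEF lungs, against 10.81, 11.85 and 8.58 in ventilated lungs, with an interval from -0.73 to 2.44. In both genes ventilation replicate 2 was the highest of the ventilation arrays. Of 22 inflammatory cytokines, 2 were higher and none lower, with 5 higher and 1 lower at an unadjusted p under 0.05 and a list median of 0.11. Restricted to the 14 members above a filter on low levels, the median was 0.80 and 3 were higher. None of the 22 passed without rhPBEF replicate 2 or 3, without ventilation replicate 1 or 2, or without both arrays high in muscle RNA, and 1 passed without rhPBEF replicate 1 or ventilation replicate 3.

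Of the NF-kB pathway, 2 targets and a feedback regulator were higher in rhPBEF lungs, and most other members had positive differences that did not pass. Tnfaip2, a target of the pathway, had 11.52, 11.63 and 11.67 in rhPBEF lungs, against 9.99, 9.43 and 9.65 in ventilated lungs, 3.77-fold (limma adjusted p = 0.005). Birc3, an inhibitor of cell death and a target, was 2.64-fold higher (limma adjusted p = 0.0297, 3 of 12 fits, up to 0.118). Zc3h12a, which encodes an enzyme that cuts cytokine messages, was 2.62-fold higher (limma adjusted p = 0.00937), although another of its probe sets gave a log2 difference of 0.58. The inhibitor genes Nfkbie and Tnfaip3 had differences of 1.71 and 1.52 without overlap, and the activation marker Cd83 had 2.03, but none of these passed (limma adjusted p = 0.0522, 0.0594 and 0.0773). Of 22 genes in the list, 3 were higher and none lower, with 15 higher and 1 lower at an unadjusted p under 0.05, and the median was 0.74. That median was 1.05 without ventilation replicate 2 and 0.51 without both arrays high in muscle RNA, where none passed. The 1 lower gene at an unadjusted p was Ptgs2, encoding the inducible prostaglandin synthase, at -1.25 (limma adjusted p = 0.335), with 10.68, 9.74 and 10.53 in rhPBEF lungs, against 11.44, 12.78 and 10.48 in ventilated lungs. Its neighbour in the pathway, the prostaglandin E synthase gene Ptges, had a difference of 1.25 (limma adjusted p = 0.204). Prostaglandin and leukotriene genes as a list had none of 23 past in limma, 3 higher and 1 lower at an unadjusted p under 0.05, and a median of 0.02, with Ptgir at 0.83 and Ptger4 at 0.38. Malt1, which links antigen and pattern receptors to NF-kB, was 2.57-fold higher (limma adjusted p = 0.0232, 8 of 12 fits, up to 0.0996).

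Receptors of the TNF family moved both ways. The costimulatory receptor gene Tnfrsf9 was 3.23-fold higher (limma adjusted p = 0.045, 2 of 12 fits, up to 0.175), and its ligand gene Tnfsf9 had 1.02 (limma adjusted p = 0.35). Tnfrsf21, encoding death receptor 6, had 9.17, 9.19 and 9.26 in rhPBEF lungs, against 10.06, 10.03 and 9.73 in ventilated lungs, 1.66-fold lower (limma adjusted p = 0.0106, 10 of 12 fits, up to 0.0538). Control lungs averaged 10.04, at the level of the ventilated lungs. Tnfrsf12a, the receptor of the cytokine TWEAK, had -0.88 (limma adjusted p = 0.226). Of 24 TNF superfamily genes, 2 were higher (Tnf and Tnfrsf9) and 1 lower, and the median was 0.02. Without both arrays high in muscle RNA none was higher (Tnf 0.0954 and Tnfrsf9 0.145, limma adjusted p) and Tnfrsf21 was still lower.

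Several acute phase genes and the pattern recognition gene Cd14 were higher, while others did not pass. Saa3, the serum amyloid made in inflamed lung, had 13.42, 13.17 and 11.74 in rhPBEF lungs, against 9.94, 8.83 and 8.83 in ventilated lungs, 11.9-fold (limma adjusted p = 0.049). It passed in 2 of 12 fits that left out 1 array, with an adjusted p of up to 0.195. Cd14, the co-receptor for endotoxin, had 13.44, 13.37 and 13.50 in rhPBEF lungs, against 11.16, 11.21 and 10.32 in ventilated lungs, 5.81-fold (limma adjusted p = 0.00614). Hpx, encoding the heme carrier hemopexin, was 4.31-fold higher (limma adjusted p = 0.0222, 9 of 12 fits, up to 0.106), and Hp, encoding the hemoglobin carrier haptoglobin, was 1.52-fold higher (limma adjusted p = 0.036, 2 of 12 fits, up to 0.14). Itih4, an acute phase inhibitor, was 1.79-fold higher (limma adjusted p = 0.00937). Orm1 and Saa1 had differences of 2.61 and 2.56 without passing (limma adjusted p = 0.0642 and 0.324), and rhPBEF replicate 3 was the lowest rhPBEF array in both, with 7.98 and 6.31. Of 25 Toll-like receptor and acute phase genes, 4 were higher (Cd14, Saa3, Lcn2 and Hp) and none lower, with 9 higher and 2 lower at an unadjusted p under 0.05 and a median of 0.42. The number higher was 2 without both arrays high in muscle RNA, without any 1 rhPBEF array, or without ventilation replicate 1 or 2. Interferon-stimulated genes had none of 28 past in limma, 6 higher and none lower at an unadjusted p under 0.05, and a median of 0.30. Among them Ifi47, Gbp2, Ifit3 and Ifit1 had 1.13, 1.08, 0.76 and 0.72.

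Some transporter genes were higher in rhPBEF lungs, and 2 potassium channel genes were lower. Slc26a4, encoding the anion exchanger pendrin of airway epithelium, had 11.38, 11.08 and 11.07 in rhPBEF lungs, against 7.29, 8.39 and 8.23 in ventilated lungs. It differed 9.23-fold (limma adjusted p = 0.00382), and control lungs averaged 6.50. Pigr, the receptor that carries antibodies across epithelium, had 10.51, 10.56 and 10.64 in rhPBEF lungs, against 9.13, 9.28 and 9.35 in ventilated lungs, 2.49-fold (limma adjusted p = 0.00106). The sodium and glucose transporter gene Slc5a1 was 2.32-fold higher (limma adjusted p = 0.00817), the cationic amino acid transporter gene Slc7a2 2.84-fold (0.00211), and the organic anion transporter gene Slco1a5 3.81-fold (0.00187). Slc13a3, a dicarboxylate transporter gene, was 2.24-fold higher (limma adjusted p = 0.0282, 6 of 12 fits, up to 0.128), and the amino acid transporter gene Slc6a20a 1.86-fold (0.0488, 2 of 12 fits, up to 0.178). Slc26a4 and these 5 transporter genes were all that passed among 362 Slc and Slco genes, a grouping made after their values were seen, and none was lower, while 28 were higher and 37 lower at an unadjusted p under 0.05 and the median was -0.037. The water channel gene Aqp4 was 1.84-fold higher (limma adjusted p = 0.02, 7 of 12 fits, up to 0.0947). In the opposite direction Kcnk2, a potassium channel opened by membrane stretch, had 8.32, 7.95 and 8.62 in rhPBEF lungs, against 9.47, 9.86 and 9.28 in ventilated lungs. It was 2.36-fold lower (limma adjusted p = 0.0282, 4 of 12 fits, up to 0.106), and control lungs averaged 9.62, so the rhPBEF arrays were the ones away from control. Another channel of that family, Kcnk1, was 1.74-fold lower (limma adjusted p = 0.0171, 9 of 12 fits, up to 0.0897). Of 18 ion and fluid transport genes in the list, 3 were higher (Slc26a4, Slc5a1 and Aqp4) and 1 lower (Kcnk2), with a median of -0.01. The 3 higher calls were also made without both arrays high in muscle RNA, and the lower one was not.

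Other genes higher in rhPBEF lungs had separate roles and belong to no list chosen here, apart from Sod2. Steap4, a metalloreductase gene that inflammation induces, had 12.61, 12.41 and 12.30 in rhPBEF lungs, against 9.33, 9.97 and 9.42 in ventilated lungs, 7.3-fold (limma adjusted p = 0.00317). Sod2, the mitochondrial superoxide dismutase gene, was 2.6-fold higher (limma adjusted p = 0.0221, 7 of 12 fits, up to 0.106). Noxo1, an organiser of an NADPH oxidase, was 2.93-fold higher (limma adjusted p = 0.047, 2 of 12 fits, up to 0.178). Acaa1b, a peroxisomal thiolase gene, had 9.20, 9.05 and 9.34 in rhPBEF lungs, against 8.20, 7.55 and 7.63 in ventilated lungs (2.64-fold, limma adjusted p = 0.00382). It stood at 7.73 after both treatments and 8.63 in control lungs, so the level after both was near that of ventilation. Mab21l3 had the smallest adjusted p of all genes, with 8.14, 8.46 and 8.72 in rhPBEF lungs, against 5.43, 5.19 and 5.42 in ventilated lungs (8.56-fold, limma adjusted p = 0.000489). In the oxidative stress and metallothionein list 1 of 21 genes was higher (Sod2) and none lower, with 7 higher and 1 lower at an unadjusted p under 0.05 and a median of 0.23. Without both arrays high in muscle RNA, without any 1 rhPBEF array, or without ventilation replicate 1 or 2, none of the list passed. The antioxidant genes Srxn1, Slc7a11 and Nqo1 in that list had -0.78, 1.13 and 0.71 without passing.

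A pair of endothelial genes was higher in rhPBEF lungs, and here control levels lay near those of rhPBEF lungs. Ephb4, a receptor for ephrins on venous endothelium, had 9.84, 10.03 and 9.86 in rhPBEF lungs, against 9.21, 8.93 and 9.27 in ventilated lungs. The difference was 0.78 ± 0.09 (SE, n = 3 each), 1.71-fold (limma adjusted p = 0.005), and control lungs averaged 9.95. Eng, a co-receptor for bone morphogenetic proteins, had 12.33, 12.20 and 12.28 in rhPBEF lungs, against 11.89, 11.75 and 11.57 in ventilated lungs, 1.45-fold (limma adjusted p = 0.0294, 4 of 12 fits, up to 0.14), with 12.40 in control. Klf2, the flow-responsive transcription factor gene, had 11.87, 12.05 and 12.35 in rhPBEF lungs, against 11.63, 10.69 and 10.84 in ventilated lungs, without passing (limma adjusted p = 0.1). Smad6, Sox18 and Tmem100 had differences of 0.90, 0.83 and 1.33 without passing, and for Tmem100 the 9.64 of ventilation replicate 2 stood far below the other 5 arrays. Of 35 endothelial junction, bone morphogenetic protein and flow genes, 2 were higher (Ephb4 and Eng) and none lower, 12 were higher and none lower at an unadjusted p under 0.05, and the median was 0.17. The number past the test was 1 without both arrays high in muscle RNA, where Eng had a limma adjusted p of 0.09. In the fit on the 6 arrays alone none of the 35 passed (limma adjusted p = 0.0866 for Ephb4 and 0.214 for Eng). The 12 endothelial markers, which include both genes, had a median of 0.21 and mean levels of 11.80, 11.63 and 11.76 in rhPBEF lungs, against 11.52, 11.19 and 11.44 in ventilated lungs. The part of endothelial RNA content in these differences was not tested.

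Among the 33 genes lower in rhPBEF lungs were those for an epithelial growth factor, tissue factor and several keratins. Btc, which encodes betacellulin, a ligand of the epidermal growth factor receptor, had 6.39, 6.25 and 6.43 in rhPBEF lungs, against 7.90, 8.03 and 7.52 in ventilated lungs. Control lungs lay between, at 7.34. The difference was -1.46 ± 0.13 (SE, n = 3 each), 2.75-fold lower (limma adjusted p = 0.00106). The next largest differences in the family were negative and did not pass, with Epgn at -0.69, the feedback inhibitor Errfi1 at -0.60 and Tgfa at -0.60. With each array left out in turn, Epgn ran from -0.96 to -0.18. Of 15 ligands and receptors of this family, 12 had a negative and 3 a positive difference, and the median was -0.22. Past the test, 1 was lower and none higher. At an unadjusted p under 0.05 in limma, 4 were lower and none higher, where 8.64% of all genes were lower. F3, which encodes tissue factor, the trigger of clotting, had 10.95, 11.11 and 10.61 in rhPBEF lungs, against 12.06, 12.18 and 12.14 in ventilated lungs. It was 2.35-fold lower (limma adjusted p = 0.00355), with 11.67 in control between the groups. Fgg, a fibrinogen chain gene, was on the other side, 2.12-fold higher (limma adjusted p = 0.0113, 11 of 12 fits, up to 0.0529), and Fga and the clotting inhibitor gene Tfpi2 each had 1.16 without passing (limma adjusted p = 0.24 and 0.448). Of 22 coagulation and fibrinolysis genes, these 2, Fgg and F3, were the ones past the test, and the median was -0.04.

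**Figure D3:**
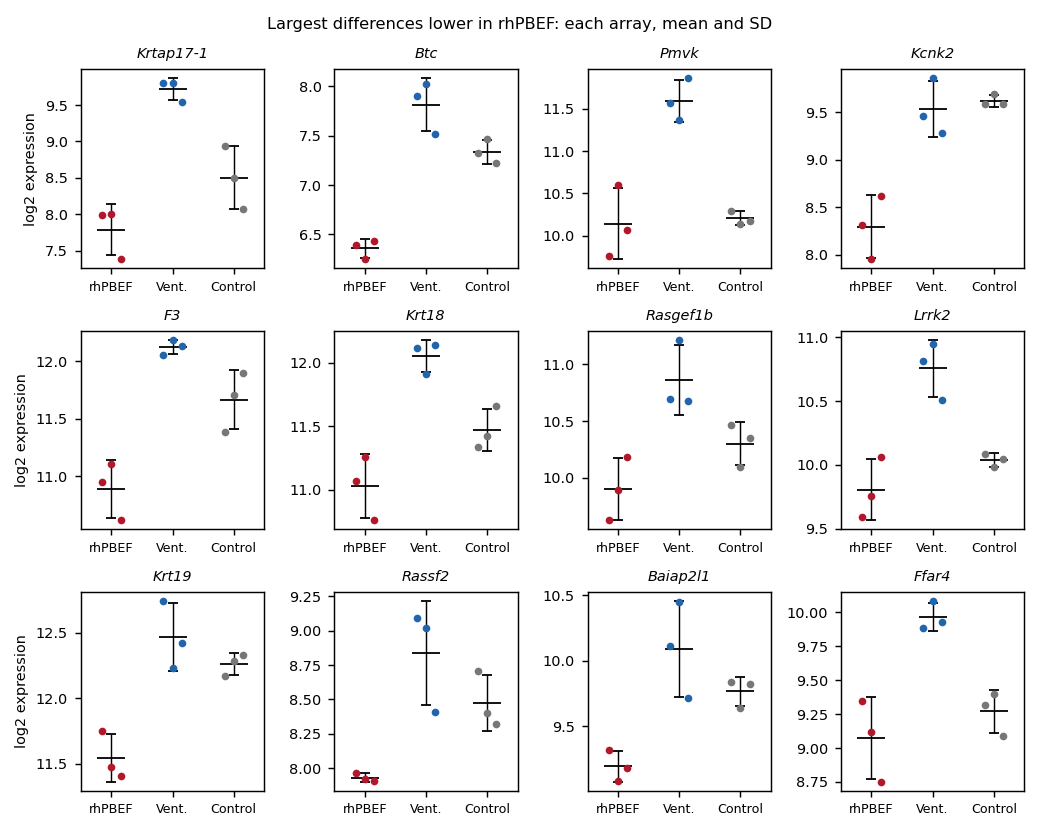
Each panel shows 1 of the 12 genes with the largest differences lower in rhPBEF lungs, with log2 expression on the y axis and 1 point per array for rhPBEF, ventilated and control lungs (bar and whiskers, mean and SD of 3 arrays). In all 12 panels the highest rhPBEF point lies below the lowest ventilation point, and for Btc and F3 control lies between.

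Keratins of simple epithelium were lower in rhPBEF lungs. Krt18 had 11.07, 11.26 and 10.76 in rhPBEF lungs, against 12.12, 11.91 and 12.14 in ventilated lungs, 2.04-fold lower (limma adjusted p = 0.00871). Its partner Krt8 had 12.48, 12.69 and 12.13 in rhPBEF lungs, against 13.38, 13.01 and 13.50 in ventilated lungs, 1.82-fold lower (limma adjusted p = 0.0479, 3 of 12 fits, up to 0.153). Krt19 was 1.9-fold lower (limma adjusted p = 0.0102), Krt7 1.47-fold (0.0184, 8 of 12 fits, up to 0.082) and Krt6a 1.34-fold (0.0479, 1 of 12 fits, up to 0.18). Mean levels in control were 11.47 for Krt18, 12.65 for Krt8, 12.26 for Krt19 and 12.28 for Krt7, in each case between the groups. Of 48 keratin genes, grouped after their values were seen, 5 were lower and none higher, where 0.181% of all genes were lower. At an unadjusted p under 0.05 in limma, 15 were lower and 1 higher, where 8.64% of all genes were lower and 3.96% higher. In the fit on the 6 arrays alone none of these 5 passed, with limma adjusted p from 0.0722 (Krt18) to 0.255 (Krt8). The desmosome gene Pkp2 was 1.84-fold lower (limma adjusted p = 0.0479, 2 of 12 fits, up to 0.159), the adhesion gene Nectin4 1.62-fold (0.0103), and the homeobox genes Irx2 and Irx5 1.47-fold and 1.52-fold (0.0113 in 11 fits and 0.049 in 2 fits of 12). For Pkp2, 2 other probe sets gave smaller log2 differences of -0.32 and -0.30, so its size depends on the probe set. Among epithelial markers none passed in limma: alveolar type 2, alveolar type 1, club and ciliated cell lists had medians of 0.11, -0.01, 0.03 and 0.03, and at an unadjusted p under 0.05 only 1 gene, of type 1 cells, was lower.

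Other lower genes had varied roles. Krtap17-1, a hair keratin-associated protein gene, had the largest difference of the 33, with 7.98, 8.00 and 7.39 in rhPBEF lungs, against 9.80, 9.80 and 9.54 in ventilated lungs (3.8-fold lower, limma adjusted p = 0.00799). Pmvk, a kinase of cholesterol synthesis, had 9.77, 10.60 and 10.07 in rhPBEF lungs, against 11.56, 11.37 and 11.86 in ventilated lungs, 2.73-fold lower (limma adjusted p = 0.0124, 9 of 12 fits, up to 0.0591). Control lungs averaged 10.21 for Pmvk, near the rhPBEF level, so the ventilation arrays were the ones away from control. The kinase gene Lrrk2, abundant in type 2 cells, was 1.94-fold lower (limma adjusted p = 0.0106, 10 of 12 fits, up to 0.0529), with 10.04 in control against 9.80 in rhPBEF and 10.76 in ventilated lungs. Rasgef1b, Rassf2, Baiap2l1 and the fatty acid receptor gene Ffar4 were lower by 1.94-fold, 1.88-fold, 1.86-fold and 1.85-fold, and each lost its call in some of the 12 fits (passing in 4, 2, 3 and 9). Edn2, encoding the vasoconstrictor endothelin 2, was 1.57-fold lower (limma adjusted p = 0.0102, 11 of 12 fits, up to 0.052).

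**Figure D4:**
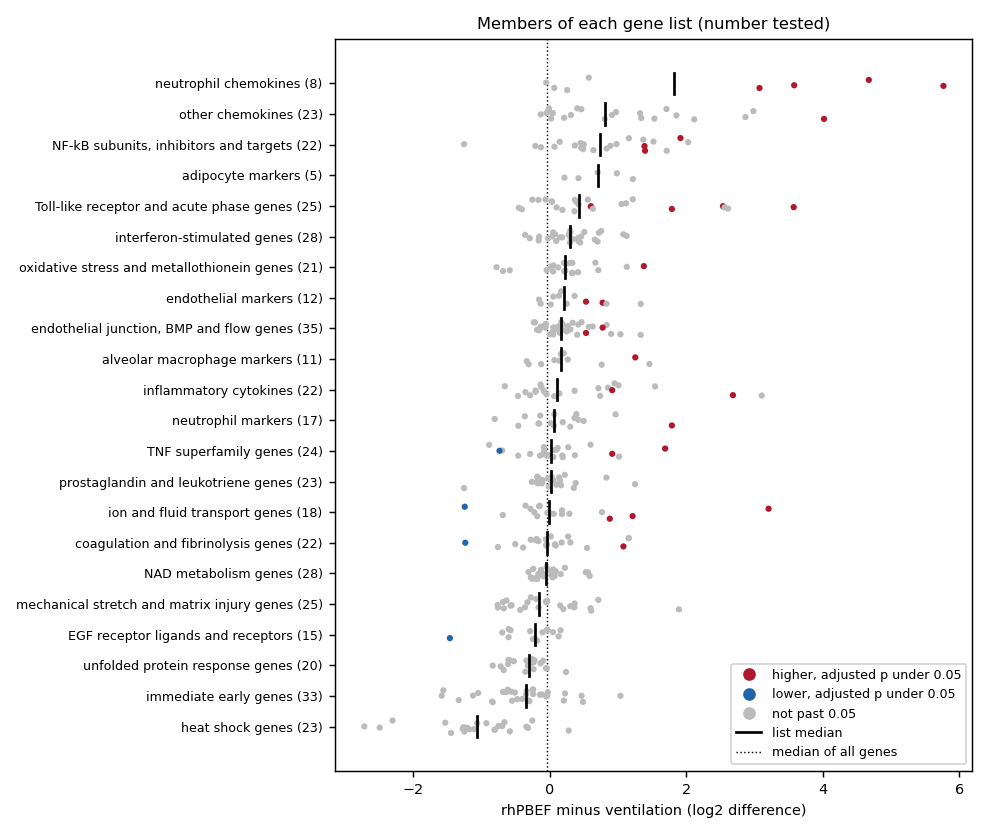
Each row is a gene list with the number of genes tested, each point a member's log2 difference (rhPBEF minus ventilation), and the black bar the list median, set against the median of all genes (dotted line, -0.04). Neutrophil chemokines have the highest median (1.82) and heat shock genes the lowest (-1.06), and coloured points passed an adjusted p of 0.05.

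Stress gene lists had negative medians without a gene past the test with all arrays. The size of the heat shock and immediate early medians rested on 1 ventilation array. Heat shock genes encode chaperones that protect proteins under stress, and their mean level was 11.03, 10.59 and 10.60 on the rhPBEF arrays and 11.47, 13.12 and 10.85 on the ventilation arrays. Ventilation replicate 2 stood above all the others. The control arrays had 11.48, 11.56 and 11.73, above every rhPBEF array. None of 23 passed in limma, 22 had a negative difference, and 1 was higher and 9 lower at an unadjusted p under 0.05. Over all genes, 3.96% were higher and 8.64% lower at that unadjusted p. The heat shock median was -1.06 with all arrays and -0.24 without ventilation replicate 2. Hsph1 had 9.54, 9.20 and 9.02 in rhPBEF lungs, against 11.12, 14.45 and 9.66 in ventilated lungs (limma adjusted p = 0.303), with 11.54 in control. Hspa1a and Hspa1b, near-identical genes whose signals may be shared, had -2.71 and -2.30, and Hspe1 had -1.53, all without passing. Immediate early genes, which respond within minutes to a stimulus, had none of 33 past, 1 higher and 9 lower at an unadjusted p under 0.05, and a median of -0.34 that was -0.02 without ventilation replicate 2. Nr4a1 had 10.10, 9.84 and 9.51 in rhPBEF lungs, against 10.18, 13.28 and 10.64 in ventilated lungs (limma adjusted p = 0.354), and Atf3, Arc and Nr4a3 had -1.58, -1.33 and -1.12. Unfolded protein response genes had none of 20 past, 7 lower and none higher at an unadjusted p under 0.05, and a median of -0.30, or -0.16 without ventilation replicate 2. Without ventilation replicate 3 the median was -0.44 and 5 passed as lower, among them Sesn2, which had 8.55, 8.63 and 8.59 in rhPBEF lungs, against 9.46, 9.60 and 8.86 in ventilated lungs (limma adjusted p = 0.0887 with all arrays, 0.00251 without that one). Trib3, Ppp1r15a and Chac1 had -0.67, -0.61 and -0.83.

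**Figure D5:**
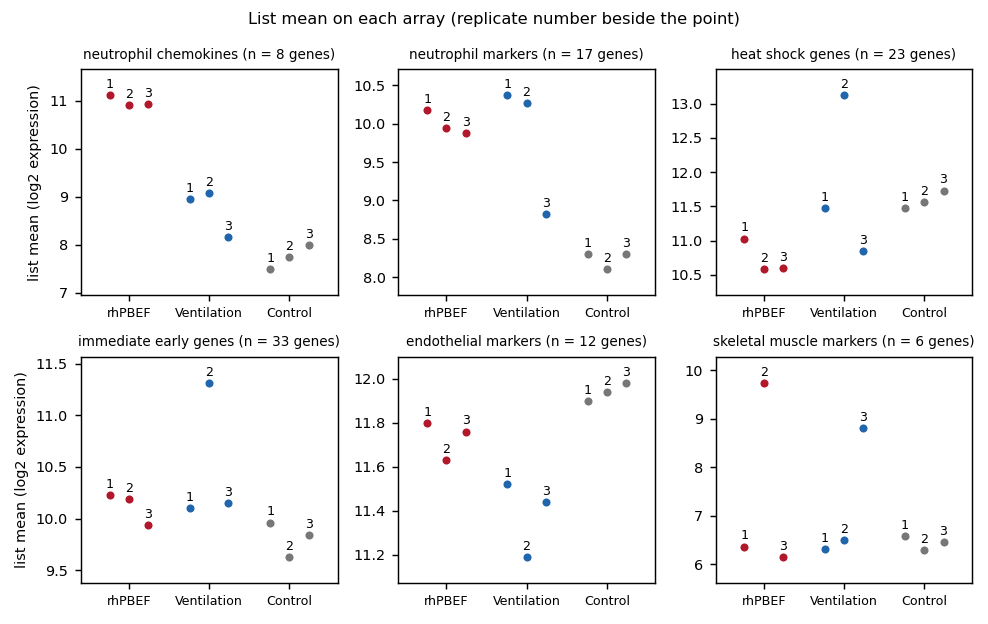
Each panel gives the mean log2 expression of a gene list on each of the 9 rhPBEF, ventilation and control arrays, with the replicate number beside the point. Neutrophil chemokines separate all rhPBEF from all ventilation arrays, neutrophil markers do not, ventilation replicate 2 stands alone in heat shock and immediate early genes, and 2 arrays stand high in skeletal muscle markers.

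Genes of mechanical stretch and matrix injury, the group most tied to ventilation by name, did not separate the treatments. None of 25 passed in limma, 4 were higher and 4 lower at an unadjusted p under 0.05, and the median was -0.16, turning to 0.10 without rhPBEF replicate 3 and to 0.09 without ventilation replicate 2. The largest difference was in Adamts4, a matrix protease gene, with 9.05, 9.55 and 7.07 in rhPBEF lungs, against 6.66, 6.47 and 6.86 in ventilated lungs (limma adjusted p = 0.301). The stretch-responsive gene Ccn2 had -0.76, Plaur, the urokinase receptor gene, -0.76, and Timp1 0.71.

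Nampt itself, the mouse gene for PBEF, had 10.56, 10.66 and 10.59 in rhPBEF lungs, against 10.64, 10.44 and 10.63 in ventilated lungs. The groups overlapped, the difference was 0.04 ± 0.12 (SE, n = 3 each) and its 95% interval ran from -0.22 to 0.29 (limma adjusted p = 0.923). The other probe sets of Nampt gave 0.34 and 0.41. Of 28 NAD metabolism genes none passed in limma, 2 were higher and 3 lower at an unadjusted p under 0.05, and the median was -0.05. Parp9, Parp14, Nadk and Sarm1 had the largest differences, at 0.59, 0.56, 0.53 and -0.31.

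Few markers of other cells passed the test, and monocyte, muscle and lymphocyte markers had none past it. At an unadjusted p under 0.05 in limma, 3.96% of all genes were higher and 8.64% lower. Fibroblast markers had none of 6 past in limma, 2 higher and none lower at an unadjusted p under 0.05, and a median of 0.28. Alveolar macrophage markers had 1 of 11 higher, Plet1, with 11.92, 11.98 and 11.96 in rhPBEF lungs, against 11.02, 10.48 and 10.60 in ventilated lungs (2.39-fold, limma adjusted p = 0.00937), although one of its other probe sets gave 0.11. Without both arrays high in muscle RNA Plet1 had a limma adjusted p of 0.0772 and none of the alveolar macrophage markers passed. The scavenger receptor gene Marco had 1.46 (limma adjusted p = 0.0786), Fabp4 0.76 and Siglecf -0.33. The list median was 0.17, with 4 higher and 1 lower at an unadjusted p under 0.05. Adipocyte markers had none of 5 past in limma, 3 higher and none lower at an unadjusted p under 0.05, and a median of 0.71 that ranged from 0.42 without ventilation replicate 1 to 1.03 without ventilation replicate 3. Pck1, Adipoq, Plin4 and Cidec had 1.22, 0.99, 0.71 and 0.42. The neutrophil markers Clec4e and Ngp had 0.97 and -0.80 without passing.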

How the data were processed

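Per the labels' protocols, mouse lung RNA was prepared with Trizol and measured as biotinylated cRNA on Affymetrix arrays. The authors deposited log2 values, 1 per probe set and array. MAS5 and GCRMA appear in the submitters' processing notes without a stated role, and how the values were normalized is not given in the sources used here. Values ran from 2.99 to 15.02 and array medians from 7 to 7.07, and 0 columns were identical. Groups were read from titles, since the description names a control animal for all samples. Precision is limited by the number of arrays.

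The table lists 45101 probe sets. After removal of 64 controls, 34945 with 1 symbol (932 had several and 9160 none) gave 18193 genes, each by its probe set with the highest 12-array mean. A model of 4 group means over all 12 arrays was fitted with limma 3.58.1 (R 4.3.3; lmFit, eBayes), contrast rhPBEF minus ventilation, with Benjamini-Hochberg adjustment over all genes and no filter. The control and combined arrays enter only the spread. An exact test of 3 against 3 cannot go below a two-sided p of 0.1. The steps were tested on simulated data.

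The comparison and the gene lists were chosen with earlier results of these data known. Named were the 12 largest non-overlapping differences past 0.05 in each direction, the 4 largest in each described list, and Nampt. Other genes past 0.05, and Il6, Il1b, S100a8, Mmp8 and the list members given by value only, were named after their values were seen. Alternatives changed the arrays fitted, filter, scaling, variance model, array weights, probe sets and replicate block, and left out arrays. Figures used matplotlib 3.10.9 in Python 3.11.15.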

Additional observations from a re-analysis of the deposited data

How the results depend on the processing

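The count of 89 genes moved by more than 1.5 times in the fit on the 6 arrays alone (32), with array weights (179), and without both arrays high in muscle RNA (44, of which 31 are among the 89). Leaving out 1 array gave 40 to 169. It stayed between 81 and 112 with a filter on low levels (89), median centring (83), quantile normalization (84), a trended robust variance (81), the mean of a gene's probe sets (88) and all probe sets (112). Over 156 named genes, the alternatives gave 3110 differences, of which 556 lost and 35 gained a call and 10 turned in sign. Only a gene past the test in the main fit could lose a call. The 556 are therefore a larger share of the differences that could lose one than of all 3110. None of the genes that turned had passed. With each array left out in turn, Chac1 ran from -1.84 to 0.20 and Nampt from -0.029 to 0.071, both turning without ventilation replicate 2. S100a9 ran from -0.37 to 0.98, S100a8 from -0.29 to 0.87 and Il1b from -0.061 to 1.57, all turning without ventilation replicate 3. Mmp8 ran from -1.36 to 0.31, turning without ventilation replicate 1. Without both arrays high in muscle RNA, S100a9 was -0.22, S100a8 -0.16, Il6 -0.22 and Il1b -0.029. The causes were not tested. Among list medians 12 of 396 moved by more than the list's own pooled SD between arrays of a group. Many of the 396 could not move. The fit on the 6 arrays, the replicate block and leaving out a control or combined array do not change the differences. The heat shock median went from -1.06 to -0.24 without ventilation replicate 2 and did not count as moved, as its SD was 0.85.

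The labels do not say whether replicate numbers pair arrays across groups. Deviations of rhPBEF and ventilation arrays with the same number correlated at 0.0946, -0.0309 and -0.0819. Those with unlike numbers ran from -0.224 to 0.217. With 3 arrays a group these values cannot decide whether arrays were paired. With the replicate number as a block, 86 genes passed, 64 of them among the 89. Without detection calls the data do not show which low levels are above background, so folds of genes with a low level in either group are sizes as measured.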
